A study of Homo sapiens with 8 samples.

Results

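PC3-EMT12 is one of 3 mesenchymal prostate cancer lines that were measured untransduced beside their epithelial parent, and it was set against the other two, PC3-EMT1 and PC3-EMT14. Of 11921 genes above a filter on dim signal, 30 were at least 2-fold (log2 1) higher or at least 2-fold lower in PC3-EMT12 than in both of those lines, and these are called apart here. Of these, 13 were higher and 17 were lower, which is 0.109% and 0.143% of the genes. The series holds 8 Affymetrix GeneChip arrays, of which 4 are untransduced, 1 for each of these lines and 1 for PC3-Epi. The parent, PC3-Epi, is an epithelial line derived from PC3, a human prostate cancer line. The EMT lines are mesenchymal subpopulations isolated from PC3-Epi cells that had been co-cultured with macrophages. All were grown in RPMI with 5% FBS, and the labels give 2 days of recovery for every array. The other 4 arrays are PC3-EMT1 and PC3-EMT14 carrying a lentiviral scrambled shRNA (Scr) or a lentiviral shRNA against ZEB1 (sh4), 1 array for each line and shRNA, and their phenotype is labelled mesenchymal with Scr and epithelial with sh4. PC3-EMT12 was not among the transduced lines. Each line gave 1 array, nothing in the labels says that arrays are separate cultures, and the number of arrays limits the precision.

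An epithelial-mesenchymal transition (EMT) is the switch in which epithelial cells give up their junctions and apical membrane systems and take on a spindle form, motility and a mesenchymal cytoskeleton. ZEB1, a zinc finger protein that represses epithelial genes such as CDH1 (E-cadherin), is one of the factors known to drive it and to keep it in place. Lines taken from one such switch may hold genes at different points between the parent and the mesenchymal state, and the comparison asks on which side of its sister lines PC3-EMT12 lies.

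Before the lines were compared, the labels were checked against markers on the log2 scale of the deposited values. CDH1 was at 11.31 in PC3-Epi and at 3.07 in PC3-EMT1, 3.61 in PC3-EMT12 and 4.00 in PC3-EMT14. ZEB1 was at 3.08 in PC3-Epi and at 6.81, 7.11 and 6.50 in the same lines. The intermediate filament gene VIM was at 11.25 in PC3-Epi and at 13.19, 13.11 and 13.17 in the 3 lines. PC3-EMT12 therefore carried the marker pattern of its label, with ZEB1 0.31 and 0.61 above its sister lines. CDH1 was under the highest bacterial control in all 3 lines, so its values there have no order. Of 23 macrophage markers on the array, 22 did not reach log2 5 in any of the 4 arrays, and LAPTM5 was at 5.11 in PC3-Epi, 5.57 in PC3-EMT1, 5.23 in PC3-EMT12 and 5.38 in PC3-EMT14. The 7 defining ones among them, such as CD14 and CD163, lay under the highest bacterial control probe set (4.56 at most) in every array, and the log2 of their summed level was between 6.11 and 6.32. Of 12 fibroblast markers, 3 reached log2 5. COL1A1 was at 6.31, 6.47, 6.18 and 6.54 in the same order, THY1 at 4.78, 5.04, 4.84 and 4.90, and COL6A3 at 9.73, 10.72, 11.22 and 11.16, so that PC3-EMT12 was the lowest mesenchymal line for 2 of them and the highest for COL6A3. The untransduced arrays had medians of 4.33 to 4.35 and the transduced arrays of 6.19 to 6.23, so levels were compared only within each set. One sign of RNA quality did differ. The 3′ probe set of ACTB exceeded the 5′ probe set by 1.63 in PC3-Epi and 1.62 in PC3-EMT12 but by 1.29 and 1.27 in PC3-EMT1 and PC3-EMT14. For GAPDH the difference was -0.28 in PC3-Epi, -0.12 in PC3-EMT1, -0.18 in PC3-EMT12 and -0.21 in PC3-EMT14. GAPDH thus did not pair PC3-EMT12 with PC3-Epi. The part of RNA quality in the differences below was not tested.

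Over all genes, PC3-EMT12 was the mesenchymal line with the fewest genes far from PC3-Epi. Against PC3-Epi, 519 genes (4.35%) were 2-fold or more higher and 738 (6.19%) were 2-fold or more lower in PC3-EMT12. The counts were 595 (4.99%) and 1083 (9.08%) in PC3-EMT1, and 588 (4.93%) and 1011 (8.48%) in PC3-EMT14. The shortfall of PC3-EMT12 was thus larger among genes that were lower than in the parent. In all 3 lines 936 genes lay 2-fold or more from PC3-Epi in 1 direction, and PC3-EMT12 was the line nearest to PC3-Epi for 421 of them (45.0%), PC3-EMT1 for 286 and PC3-EMT14 for 229. The distances themselves differed little. The median distance from PC3-Epi over these genes was 1.57 in PC3-EMT12, 1.66 in PC3-EMT1 and 1.66 in PC3-EMT14. Among the 584 that were lower it was 1.52, 1.69 and 1.61, and among the 352 that were higher it was 1.65, 1.60 and 1.69, with PC3-EMT12 between the others. The PC3-Epi array is shared by all 3 comparisons and has no replicate, so none of these counts has a test.

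Genes of epithelial junctions and epithelial regulators were, on the median, at similar levels in the 3 mesenchymal lines. Over 22 genes of epithelial junctions the median difference from PC3-Epi was -1.63 in PC3-EMT12, against -1.66 in PC3-EMT1 and -1.60 in PC3-EMT14. Over 12 epithelial regulators it was -2.90, against -2.89 and -3.02. The keratins, described below, were less alike, at -0.90 over 7 genes, against -0.29 and -0.72. ESRP1, a splicing factor of epithelial cells, was at 11.15 in PC3-Epi, 2.94 in PC3-EMT1, 2.89 in PC3-EMT12 and 3.24 in PC3-EMT14. OVOL2, a zinc finger repressor that holds cells epithelial, was at 8.80 in PC3-Epi and at 3.32, 2.96 and 3.40. EHF, an epithelial ETS factor, was at 9.08 and then 3.28, 3.45 and 3.50, and OVOL1 was at 7.21 and then 4.00, 4.11 and 3.97. All 4 genes lay under the highest bacterial control in every mesenchymal line, so their values there have no order. EPCAM, an epithelial adhesion molecule, was highest of the 3 in PC3-EMT12 at 9.80, against 9.16 and 9.58 and against 12.86 in PC3-Epi. No gene of the lists of junctions, regulators, and epithelial proteases and trafficking was apart.

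**Figure D1:**
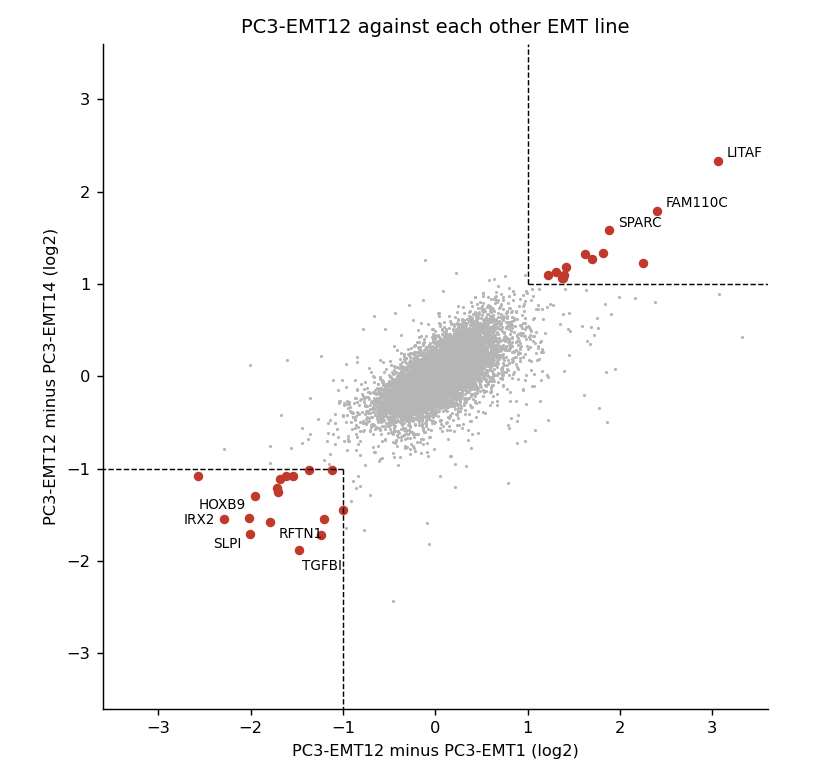
Each grey point is 1 of 11921 genes, placed by the log2 difference of PC3-EMT12 from PC3-EMT1 (horizontal axis) and from PC3-EMT14 (vertical axis); red points are the 30 genes beyond log2 1 from both lines, the corners bounded by dashed lines. LITAF lies furthest out, at 2.33 above the nearer line, and the lower genes reach 1.71 below it (SLPI).

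PC3-EMT12 was not the line most apart from its sisters by the same rule. PC3-EMT1 was apart from both other lines in 41 genes, 9 higher (0.0755%) and 32 lower (0.268%), and PC3-EMT14 in 7 genes, 6 higher (0.0503%) and 1 lower (0.00839%). PC3-EMT14 lay between the other two for 129 of the 146 genes that were 2-fold apart between PC3-EMT12 and PC3-EMT1, and for 26 of the 30 genes described here. Against PC3-EMT1 alone, 94 genes were 2-fold or more higher and 52 lower in PC3-EMT12, and against PC3-EMT14 alone the counts were 19 and 31, so the number that are apart rests largely on PC3-EMT14. With limma on the 4 arrays, in which PC3-EMT1 and PC3-EMT14 supply the only residual degree of freedom, 0 genes (0%) passed an adjusted p of 0.05, and 1254 had an unadjusted p under 0.05. When line and treatment were fitted over all 8 arrays, 5 genes (0.0419%) passed, all of them among the 30: LITAF was higher, and SLPI, IRX2, S100P and SDC2 were lower. The fit over 8 arrays takes the same difference that the rule used, so that its genes are among the 30 lends them no support. The transduced arrays, whose values are on another scale, entered only its error. The mean over all probe sets of a gene left 7 higher and 11 lower genes apart, and 32 added on the linear scale left 5 and 9. The values of the 30 genes are therefore given as a description of 1 array against 2.

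**Figure D2:**
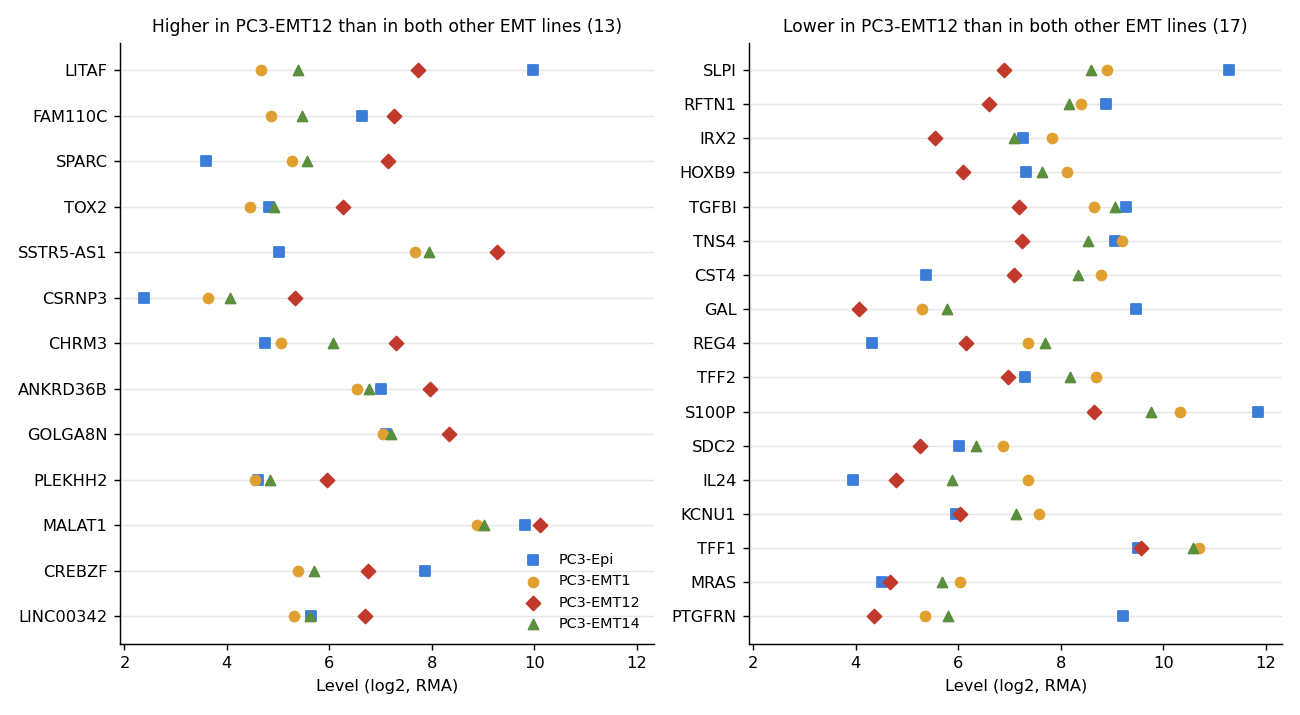
Log2 level (RMA, horizontal axis) of the 13 genes that were higher (left) and the 17 that were lower (right) in PC3-EMT12, 1 array per line: PC3-Epi (blue squares), PC3-EMT1 (orange circles), PC3-EMT12 (red diamonds) and PC3-EMT14 (green triangles), ordered by the gap to the nearer line. PC3-Epi falls on either side of the 3 mesenchymal lines, from far above (LITAF, PTGFRN) to far below (SPARC, REG4).

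Relative to PC3-Epi, the 30 genes did not point in 1 direction. PC3-EMT12 was nearer to PC3-Epi than both sister lines for 11 genes and further from it for 18, with SDC2 in neither position. The split was 4 nearer and 9 further among the higher genes, and 7 and 9 among the lower genes. With limits of log2 1 on the difference from PC3-Epi, 5 genes kept the PC3-Epi level in PC3-EMT12 alone, and 9 left it in PC3-EMT12 alone. For 7 genes PC3-EMT12 had gone further in the direction that all 3 lines took, for 4 it had gone part of the way, and 5 fell in none of these classes. This balance depended on the limit. At 1.5-fold 144 genes were higher and 64 lower, and 117 of these were nearer to PC3-Epi and 82 further. Of those nearer, 47 were on chromosome 2. Against PC3-EMT1 alone the counts at 2-fold were 73 nearer and 73 further, and against PC3-EMT14 alone 22 and 28.

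Of the genes for which PC3-EMT12 was nearer to the parent than its sister lines were, LITAF had the largest gap. LITAF encodes a membrane protein of late endosomes that was first described as a factor in TNF expression. Its level was 9.98 in PC3-Epi, 4.66 in PC3-EMT1, 7.72 in PC3-EMT12 and 5.39 in PC3-EMT14. PC3-EMT12 thus lay 3.06 and 2.33 above its sister lines and below the parent by a difference of -2.26. A second probe set of LITAF gave 8.83, 3.93, 6.19 and 4.87 in the same order, the same arrangement. CREBZF, a basic leucine zipper regulator, was also part of the way, at 7.87, 5.40, 6.76 and 5.70. FAM110C, which encodes a protein of the centrosome and spindle pole, kept the parental level at 6.64 in PC3-Epi and 7.26 in PC3-EMT12, against 4.86 and 5.47.

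The lower genes that kept the parental level were ones that only the sister lines held high. IL24, a cytokine of the IL10 family, was at 3.94 in PC3-Epi and 4.79 in PC3-EMT12, against 7.36 in PC3-EMT1 and 5.87 in PC3-EMT14. KCNU1, a pH-sensitive potassium channel gene best known from sperm, was at 5.95 and 6.04, against 7.58 and 7.12. MRAS, a Ras family GTPase of the MAP kinase pathway, was at 4.51 and 4.67, against 6.04 and 5.68. In each case PC3-EMT12 and PC3-Epi were within 0.85 of each other and both sister lines were above them. IL24 in PC3-Epi was under the bacterial control, so its distance from the parent is a poor measure. The trefoil peptides, small secreted proteins that protect mucosal surfaces, behaved alike. TFF1 was at 9.51 in PC3-Epi and 9.57 in PC3-EMT12, against 10.69 and 10.59, and TFF2 was at 7.30 and 6.98, against 8.69 and 8.18.

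A further pair of secreted genes had risen part of the way in PC3-EMT12. REG4, a lectin-like secreted protein of the gut that is also found in prostate tumours, was at 4.32 in PC3-Epi, 7.37 in PC3-EMT1, 6.16 in PC3-EMT12 and 7.70 in PC3-EMT14. CST4, a salivary cystatin that inhibits cysteine proteases, was at 5.37, 8.78, 7.08 and 8.33. PC3-EMT12 lay between the parent and the sister lines for both genes, but REG4 in PC3-Epi was under the bacterial control, so its distance from the parent is a poor measure. A second probe set of REG4 was apart as well, at 3.03, 6.71, 4.79 and 6.92, and CST4 had only 1 probe set.

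SLPI, S100P, GAL and PTGFRN were lower than in the parent in all 3 mesenchymal lines and lowest in PC3-EMT12. SLPI, an inhibitor of neutrophil elastase made by epithelia, was at 11.28 in PC3-Epi, 8.90 in PC3-EMT1, 6.89 in PC3-EMT12 and 8.60 in PC3-EMT14. S100P, a calcium-binding protein of many carcinomas, was at 11.85, 10.34, 8.65 and 9.77. The neuropeptide gene GAL was at 9.46, 5.30, 4.06 and 5.78, where the value in PC3-EMT12 was under the bacterial control and its distance is thus a poor measure. PTGFRN, a tetraspanin-associated membrane protein, was at 9.22, 5.36, 4.36 and 5.80, again under that control in PC3-EMT12. Its second probe set gave 9.82, 5.44, 3.19 and 6.60. SLPI and S100P were well above the controls in every line and had the same order of lines.

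Among the lower genes, 5 left the parental level in PC3-EMT12 alone. RFTN1, which encodes a lipid raft protein, was at 8.89 in PC3-Epi and at 8.39 in PC3-EMT1, 6.60 in PC3-EMT12 and 8.17 in PC3-EMT14. TNS4, a focal adhesion protein that binds integrin tails, was at 9.07, 9.19, 7.24 and 8.53. TGFBI, a secreted matrix protein that binds integrins and is induced by TGF-beta, was at 9.27, 8.66, 7.18 and 9.06. The others were developmental transcription factors. HOXB9 was at 7.32, 8.12, 6.10 and 7.63, and IRX2 was at 7.26, 7.84, 5.55 and 7.10. For these 5 genes the parent lay within 0.80 of both sister lines, and PC3-EMT12 lay below all 3 other arrays. The second probe sets of HOXB9 and TNS4 had the same sign, at -0.82 and -0.74 against the mean of the sister lines, but were not apart, and those of RFTN1 and IRX2 were dim in every line. SDC2, a cell surface heparan sulphate proteoglycan, was at 6.01, 6.88, 5.26 and 6.34, also lowest in PC3-EMT12. A second probe set of SDC2 had the same sign, at -0.83, and was not apart. In another, at 4.80, 5.05, 4.92 and 4.90, PC3-EMT12 lay between its sister lines.

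Among the higher genes, SPARC was the mesenchymal gene that went furthest. SPARC, a secreted matrix-binding glycoprotein and a marker of mesenchymal cells, was at 3.59 in PC3-Epi, 5.28 in PC3-EMT1, 7.15 in PC3-EMT12 and 5.57 in PC3-EMT14. Its value in PC3-Epi was under the bacterial control, so the distance from the parent is a poor measure. SSTR5-AS1, an antisense RNA at the somatostatin receptor gene SSTR5, was at 5.02, 7.66, 9.28 and 7.95. CSRNP3, a nuclear protein of a family linked to apoptosis, was at 2.39, 3.63, 5.33 and 4.07. It cleared the bacterial control in PC3-EMT12 alone and passed the filter only through that array. CHRM3, the muscarinic acetylcholine receptor that couples to calcium release, was at 4.75, 5.06, 7.30 and 6.07, and a second probe set of it was apart too, at 5.11, 4.79, 7.09 and 5.91. All 4 were highest in PC3-EMT12 and second highest in PC3-EMT14. The arrays' processing gives no strand information beyond the probe set's name, so SSTR5-AS1 is reported by that name.

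Among the higher genes, 4 left the parental level in PC3-EMT12 alone. TOX2, an HMG box transcription factor, was at 4.82, 4.45, 6.26 and 4.92. PLEKHH2, which encodes a cytoskeletal protein of podocytes, was at 4.60, 4.55, 5.95 and 4.84. GOLGA8N, of a golgin family with many near-identical copies on chromosome 15, was at 7.11, 7.04, 8.34 and 7.21, and its probe set cannot be taken as specific to 1 copy. LINC00342, a non-coding RNA, was at 5.64, 5.32, 6.70 and 5.63. PC3-Epi and both sister lines lay within 0.47 of each other for all 4. TOX2 and PLEKHH2 passed the filter at log2 5 only through PC3-EMT12, so the level they left was close to background. ANKRD36B, another gene with close copies, was at 7.01, 6.55, 7.96 and 6.77. The nuclear non-coding RNA MALAT1 was at 9.82, 8.88, 10.10 and 9.01, near the parent's level. Of 9 further probe sets of MALAT1 above the filter, all had the same sign but only 1 was apart. Another gave 8.06, 5.93, 7.92 and 7.54, with PC3-EMT14 close to PC3-EMT12. PC3-Epi and PC3-EMT12 were also the arrays with the larger 3′ to 5′ difference of ACTB, but not of GAPDH.

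The rule's edge cut through a continuous range. Just inside it were MRAS and TFF1 at -1.01 from the nearer line among lower genes, with PTGFRN at the limit, and LINC00342 and CREBZF at 1.07 among higher genes. Just outside it were SBSN at -0.97 and the chemokine gene CXCL3 at -0.95, and ZNF514 at 0.97 and the peptidase gene DPP4 at 0.95. Of the 30 genes, 13 had a single probe set. For 11 genes at least 1 further probe set passed the filter, 25 in all. Against the mean of the sister lines all 25 had the same sign as the one used, but a probe set of SDC2 differed by only -0.05. MALAT1 alone gave 9 of the 25. By the same rule 6 of the 25 were apart. They come from the same arrays, and some, as in CHRM3 and LINC00342, passed the filter only through PC3-EMT12.

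The transduced arrays of PC3-EMT1 and PC3-EMT14 gave a difference that the rule did not use, that of the 30 genes between an shRNA against ZEB1 and the scrambled one. The untransduced arrays of both lines, which the rule did use, entered the fit and its error. Over 16662 genes tested with limma on 6 arrays of these lines, with the line as a block, 115 rose (0.69%) and 81 fell (0.486%) in sh4 against Scr at an adjusted p of 0.05, 1.18% in all. Without the block 12 genes passed, and with the 4 transduced arrays alone 0 of 16662 did (smallest adjusted p = 0.0511, 2499 at an unadjusted p under 0.05). Of the 30 genes, 6 passed. The 3 that passed among the lower genes rose, and the 3 among the higher genes fell. ZEB1 itself fell by 0.91 (SE 0.15, adjusted p = 0.0422), and it was the gene targeted.

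SLPI was at 9.16 in Scr and 10.87 in sh4 of PC3-EMT1, and at 9.32 and 11.07 in PC3-EMT14. It rose by 1.73 (SE 0.15, adjusted p = 0.00533), by nearly the same amount in both lines. PTGFRN was at 6.80 and 7.94 in PC3-EMT1 and at 7.19 and 8.36 in PC3-EMT14, a rise of 1.16 (SE 0.11, adjusted p = 0.00922). IL24 was at 6.73 and 8.56, and at 6.48 and 8.63, a rise of 1.99 (SE 0.32, adjusted p = 0.0422). These are genes that PC3-EMT12 held at lower levels than its sister lines.

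CHRM3 was at 8.62 in Scr and 7.24 in sh4 of PC3-EMT1, and at 8.95 and 7.87 in PC3-EMT14, a fall of 1.23 (SE 0.17, adjusted p = 0.0268). SSTR5-AS1 was at 8.91 and 7.88, and at 8.84 and 7.11, and it fell by 1.38 (SE 0.23, adjusted p = 0.0422). LINC00342 was at 9.45 and 8.80, and at 9.96 and 8.88, and it fell by 0.86 (SE 0.14, adjusted p = 0.0404). In every one of these 6 genes sh4 lay on the same side of Scr in both lines. SPARC had a larger difference than these, with 8.69 and 6.61 in PC3-EMT1 and 7.23 and 5.33 in PC3-EMT14, or -1.99 (SE 0.37), and did not pass (adjusted p = 0.0596). On the transduced arrays the bacterial controls reached 6.00, above its 5.33. Of the 30 genes, 7 were 2-fold or more apart between sh4 and Scr in both lines, against 0.408% of the 16662 genes tested. The 30 came from the 11921 genes filtered on the untransduced arrays. The 16662 include genes that reached log2 5 only on transduced arrays, where the bacterial controls reached 6.00. The shares are thus not over like sets.

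The whole sets followed the same arrangement in part. Of the 13 higher genes, 10 were lower in sh4 than in Scr in both lines and 1 was higher in both. Of the 16662 genes tested, a set with more dim genes, 28.7% were lower in both lines and 35.1% were higher. The median difference of the 13 genes was -0.84, against 0.02 over all genes tested. Of the 17 lower genes, 7 were higher in sh4 in both lines and 2 were lower in both, with a median of 0.15, so this set was not far from the background. REG4 and TGFBI differed between the lines, with sh4 minus Scr at -2.80 in PC3-EMT1 and 0.16 in PC3-EMT14 for REG4 and at 0.09 and -1.18 for TGFBI. REG4 was at 5.28 in Scr and 5.44 in sh4 of PC3-EMT14, under the bacterial control of 6.00. The value of 0.16 therefore cannot show whether REG4 responded in that line. TOX2, counted among the 10, was under the same control at 5.54 in Scr and 5.15 in sh4 of PC3-EMT1. Its direction in PC3-EMT1 is thus a poor measure too. The calls depended on the fit. Without the line as a block 1 of the 30 genes passed, with the 4 transduced arrays alone 0 did (15 at an unadjusted p under 0.05), and with probe sets averaged, or with dim values raised to log2 5, 2 did.

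**Figure D3:**
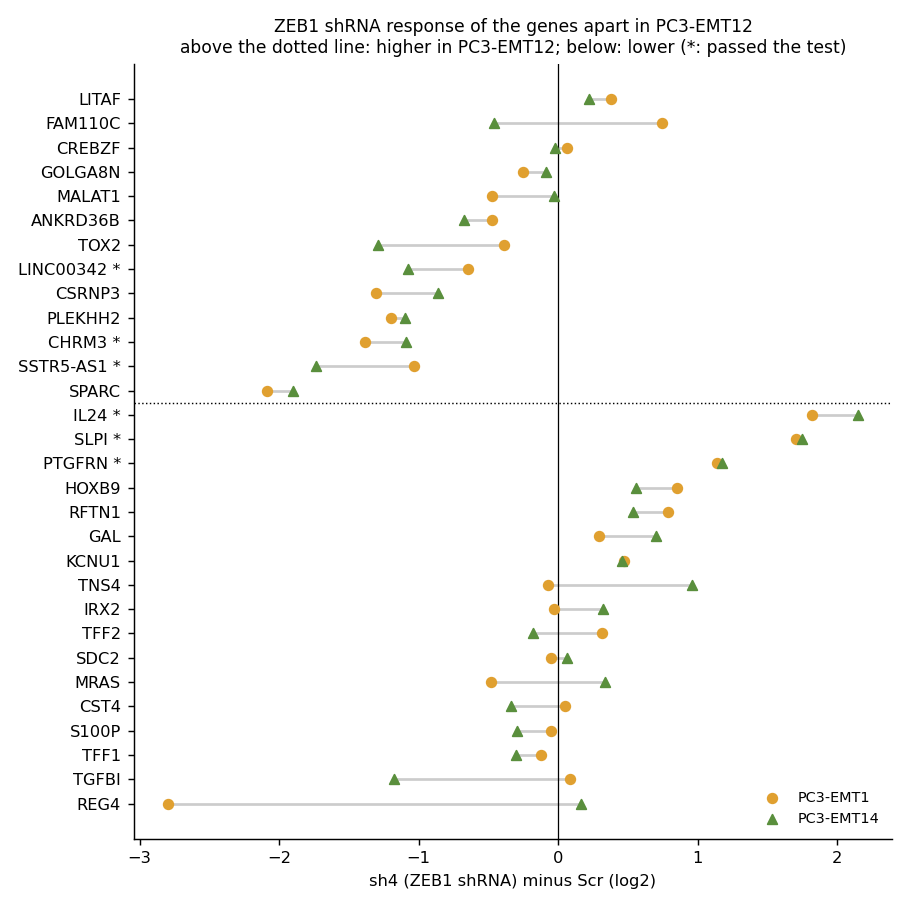
Log2 difference of sh4 from Scr (horizontal axis) for the 30 genes in PC3-EMT1 (orange circles) and PC3-EMT14 (green triangles), 1 array for each point's sh4 and Scr, with a grey line joining the lines of 1 gene; genes above the dotted line were higher in untransduced PC3-EMT12 and those below it lower, and an asterisk marks the 6 genes that passed limma's test. Of the 13 higher genes, 10 lie left of 0 in both lines.

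ZEB1 binds E-box letters in DNA, so the 250 bases before the RefSeq starts of the genes (GRCh38.p14) were searched for CAGGTG and CAGGTA on both strands. Promoter entries were found for 20 of the 30 genes, and 4 of these held a match: LITAF, PTGFRN, CHRM3 and S100P. Of all 35116 promoter entries 23.8% held one, and of all genes with an entry 27.7%, so the share among the 20 genes was not above the background. Shown 5′ to 3′ with the matched letters in capitals are the windows of PTGFRN and CHRM3, which passed the sh4 test in opposite directions, and of S100P, for which sh4 and Scr differed by -0.17 (SE 0.12, adjusted p = 0.484).
PTGFRN (chr1:116909666-116909915, + strand): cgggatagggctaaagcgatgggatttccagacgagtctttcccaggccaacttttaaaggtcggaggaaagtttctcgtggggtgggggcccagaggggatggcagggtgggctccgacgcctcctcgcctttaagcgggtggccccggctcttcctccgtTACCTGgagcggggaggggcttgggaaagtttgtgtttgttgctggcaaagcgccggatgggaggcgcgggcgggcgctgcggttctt
CHRM3 (chr1:239386318-239386567, + strand): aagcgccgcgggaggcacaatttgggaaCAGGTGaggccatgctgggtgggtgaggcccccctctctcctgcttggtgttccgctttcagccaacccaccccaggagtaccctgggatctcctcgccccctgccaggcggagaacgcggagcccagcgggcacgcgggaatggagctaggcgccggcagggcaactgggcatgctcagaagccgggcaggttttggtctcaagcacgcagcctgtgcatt
S100P (chr4:6693628-6693877, + strand): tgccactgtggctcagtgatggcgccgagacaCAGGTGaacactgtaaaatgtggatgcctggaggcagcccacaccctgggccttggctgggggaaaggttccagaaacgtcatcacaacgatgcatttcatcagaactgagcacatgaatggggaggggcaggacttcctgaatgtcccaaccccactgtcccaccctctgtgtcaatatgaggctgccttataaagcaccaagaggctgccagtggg
The match begins at position -88 from the start in PTGFRN, -222 in CHRM3 and -218 in S100P. The letters alone are a description of the sequence and mark no binding site.

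Gene lists other than epithelial junctions, regulators, and proteases and trafficking were compared in the same way. None of 30 lists held a gene that passed limma's test, and the medians of PC3-EMT12 minus the mean of its sister lines ran from -0.46 to 0.11 over lists with at least 7 measured genes, against -0.01 over all genes. PC3-EMT12 was below both sister lines for 41.2% of all genes and above both for 35.6%. The lists furthest from these shares were inflammatory cytokines, stress genes and keratins.

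Of 21 inflammatory cytokine genes, PC3-EMT12 was below both sister lines in 16 and above both in 1, with a median of -0.46. The median difference from PC3-Epi was 0.07 in PC3-EMT12, against 0.40 in PC3-EMT1 and 0.37 in PC3-EMT14. IL24 was the only member apart. CXCL3, a neutrophil chemoattractant, was at 5.16 in PC3-Epi, 7.16 in PC3-EMT1, 6.00 in PC3-EMT12 and 6.95 in PC3-EMT14, and IL6 was at 6.51, 7.33, 5.88 and 6.45. Both rose in sh4, by 1.68 (SE 0.14, adjusted p = 0.00527) for CXCL3 and 0.96 (SE 0.14, adjusted p = 0.0333) for IL6, and neither passed with the 4 transduced arrays alone.

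Of 17 stress genes, which answer to unfolded protein or a lack of amino acids, PC3-EMT12 was below both sister lines in 15, with a median of -0.29. ATF3, a stress-induced transcription factor, was at 9.07 in PC3-Epi, 8.53 in PC3-EMT1, 6.74 in PC3-EMT12 and 7.67 in PC3-EMT14. SESN2, which restrains mTORC1 signalling under stress, was at 6.77, 7.42, 6.48 and 7.15. The exception was SLC7A11, the cystine transporter, at 8.53, 7.25, 8.24 and 7.34, so that PC3-EMT12 was near the parent. No gene of this list was apart.

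Of 7 keratins measured, PC3-EMT12 was below both sister lines in 6, with a median of -0.30. KRT8 was at 11.96, 11.67, 11.12 and 11.24, and KRT80 at 8.11, 7.90, 7.22 and 7.58, so PC3-EMT14 was nearer to PC3-EMT12 than PC3-EMT1 was. The median of the interferon response list was -0.29, but PC3-EMT12 was below both lines in only 10 of 22 genes and above both in 0. OASL, an interferon-induced antiviral gene, was at 7.25, 10.66, 8.65 and 8.53. For this gene PC3-EMT1 was the line that lay away from the other two.

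Mesenchymal and signalling genes were mixed. Over 24 genes of the mesenchymal cytoskeleton and adhesion list the median was -0.03, and SPARC was the only gene apart. FN1 (fibronectin), the main glycoprotein of provisional matrix, was at 11.88 in PC3-Epi, 10.46 in PC3-EMT1, 12.37 in PC3-EMT12 and 11.69 in PC3-EMT14, and PC3-EMT12 was the only mesenchymal line above the parent. NT5E (CD73), an ectoenzyme that makes adenosine, was at 7.30, 8.23, 9.38 and 8.99. CDH2 (N-cadherin) was at 8.44, 9.32, 9.09 and 9.13, with little between the lines. Of Wnt receptors, FZD4 was at 8.76, 7.35, 8.73 and 8.05, near the parent in PC3-EMT12, and FZD7 at 6.60, 4.65, 3.84 and 5.02, furthest from it. BMPR2, a receptor of bone morphogenetic proteins, was at 7.40, 5.72, 6.81 and 6.07. Of 13 HOX genes, PC3-EMT12 was below both sister lines in 9, with a median of -0.18, and HOXB9 was the only gene apart.

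**Figure D4:**
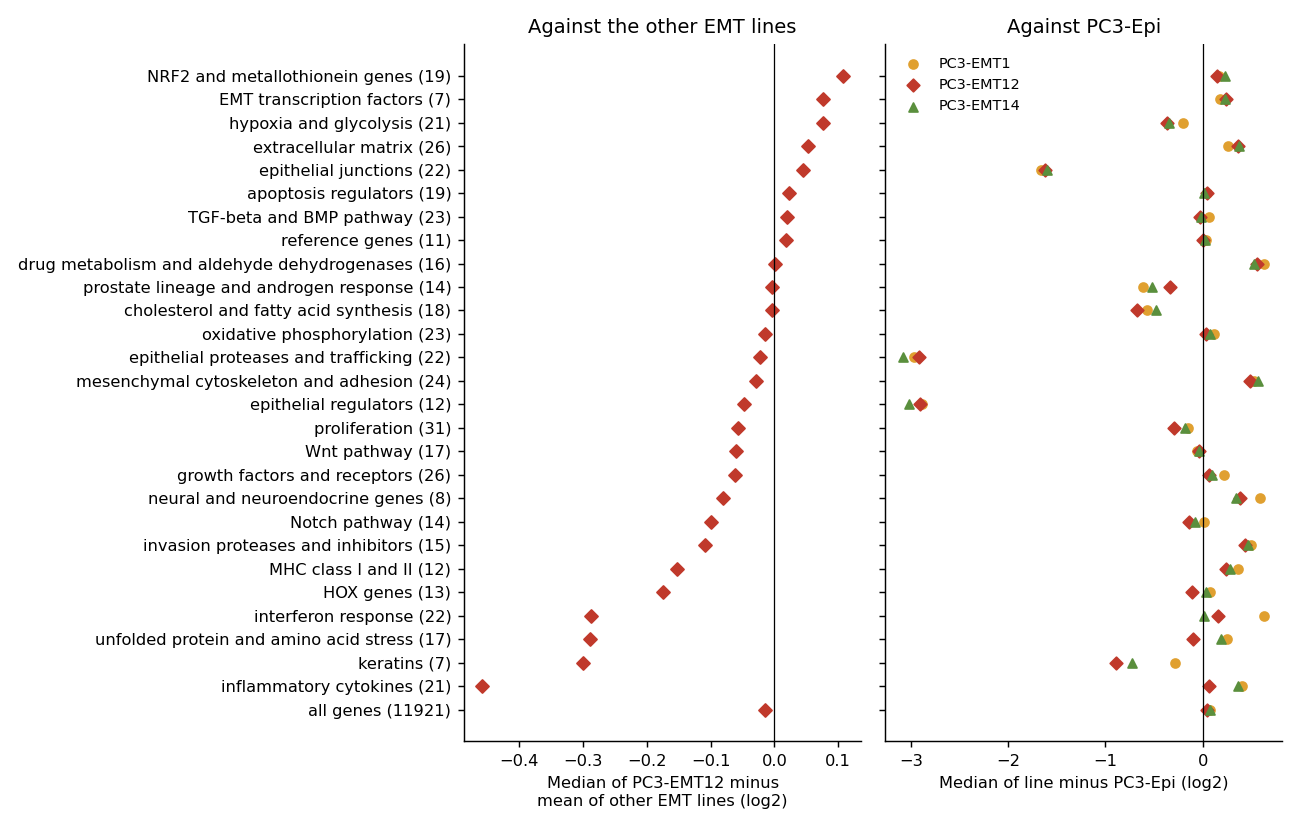
Left, the median over each gene list of the log2 difference between PC3-EMT12 and the mean of PC3-EMT1 and PC3-EMT14; right, the median log2 difference of each line from PC3-Epi (symbols as in the legend), with the number of measured genes in parentheses, for lists with at least 7. Inflammatory cytokines lie lowest on the left at -0.46. The lists of epithelial junctions, regulators, and proteases and trafficking, far left on the right panel, lie close together in the 3 lines.

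One further difference of PC3-EMT12 followed a chromosome. Over 765 genes of chromosome 2 the median of PC3-EMT12 minus the mean of its sister lines was 0.23, and the next highest chromosome, 13, was at 0.07. PC3-EMT12 was above both sister lines for 567 of these genes (74.1%), where it was above both for 35.6% of all genes. The lowest chromosome medians were -0.14 on chromosome 22 and -0.11 on chromosomes 19 and 16. There PC3-EMT12 was below both sister lines for 63.0%, 61.1% and 60.4% of the genes, against 41.2% of all genes. Against PC3-Epi the chromosome 2 median was -0.03 in PC3-EMT12 and -0.24 in both PC3-EMT1 and PC3-EMT14. PC3-EMT12 thus held chromosome 2 genes at the parental level on the median while both sister lines held them lower, at equal medians. PC3-EMT1 and PC3-EMT14 differed from each other by a median of 0.01 there. With no filter on dim genes the chromosome 2 median of PC3-EMT12 against them was 0.10.

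**Figure D5:**
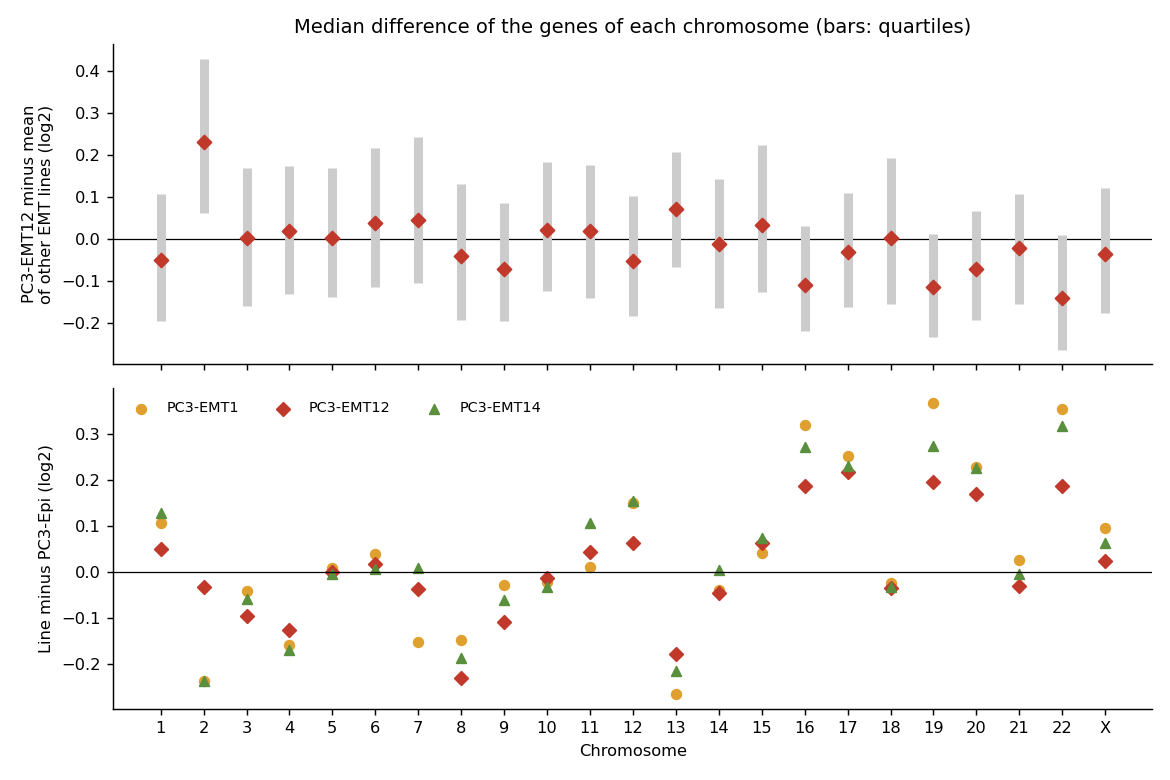
Top, the median (red diamonds) and the range between the quartiles (grey bars) of the log2 difference of PC3-EMT12 from the mean of PC3-EMT1 and PC3-EMT14 for each chromosome; bottom, the median log2 difference of each line from PC3-Epi. Chromosome 2 stands at 0.23 in the top panel, and in the bottom panel PC3-EMT12 lies near 0 there while both other lines lie at -0.24.

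The difference ran along the whole chromosome. Windows of 50 neighbouring genes were moved by 10 genes at a time, so that they overlap and are not separate observations. In all 72 on chromosome 2 the median was above 0, from 0.06 to 0.44. In 40 of them PC3-EMT12 was 0.2 or more above each sister line separately, which was so in 7 of 1018 windows elsewhere: 4 on chromosome 15, 2 on chromosome 11 and 1 on chromosome 7. The highest window ran from NMI to SP3, where 45 of 50 genes were higher in PC3-EMT12. In that stretch PC3-EMT12 was itself below PC3-Epi, at a median of -0.54, against -0.93 in PC3-EMT1 and -0.92 in PC3-EMT14. The lowest window ran from PRADC1 to ATOH8, at 0.06. On chromosome 11, in the window from SMCO4 to PPP2R1B, PC3-EMT12 was 0.63 above PC3-EMT1 and 0.23 above PC3-EMT14, so the sister lines also differed from each other.

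Chromosome 2 also held a large share of the genes apart. Of the 13 higher genes, 5 lie on it (FAM110C, CSRNP3, ANKRD36B, PLEKHH2 and LINC00342) and 0 of the 17 lower genes, where 6.42% of the genes measured do. CSRNP3 and PLEKHH2 passed the filter only through PC3-EMT12. The count rests on the same values as the chromosome median, so it is no separate support. At 1.5-fold, 60 of 144 higher genes (41.7%) and 4 of 64 lower genes were on chromosome 2. Without chromosome 2 the genes apart at 1.5-fold were 84 higher and 60 lower, and 70 of them were nearer to PC3-Epi and 67 further, so the excess of nearer genes at that limit was on chromosome 2. FN1, BMPR2 and DPP4 lie on chromosome 2 as well. The gene DPP4, a cell surface peptidase, was at 7.14 in PC3-Epi, 6.83 in PC3-EMT1, 8.23 in PC3-EMT12 and 7.28 in PC3-EMT14. Not all genes there followed, and FZD7 and the actin gene ACTG2, at 8.96, 6.15, 5.23 and 6.58, were lowest in PC3-EMT12. What underlies the chromosome-wide difference was not tested, and PC3-EMT12 has no second array in which to look for it again.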

How the data were processed

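The deposited values are log2 expression levels that the authors made from Affymetrix arrays, with affy and RMA per the labels. The summary method, probe set definition and versions beyond this, and the genome build, are not given in the sources used here. Of 54613 probe sets other than controls, 41091 have 1 gene symbol, 1801 have several and 11721 have none, and only the first were used. Symbols were updated through the Entrez number. One probe set, that of highest mean in the 8 arrays, stood for each of 19775 genes, and 11921 genes with at least 1 of the 4 untransduced arrays at log2 5 or above were kept (16662 over the 6 arrays of the ZEB1 comparison). Levels were not compared between the untransduced and transduced sets.

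Differences were tested with limma 3.58.1 in R 4.3.3 (lmFit, eBayes, two-sided, Benjamini-Hochberg over all genes kept). PC3-EMT12 was assumed to vary like the other lines. The ZEB1 comparison kept the line as a block, since the replicate numbers name the cell line. An error given as SE is the moderated standard error. The fits were tested on simulated arrays with known answers before use. Of the 2-fold changes put in, the PC3-EMT12 fit called 29.7% and the sh4 fit 88.6%. The PC3-EMT12 fit therefore missed most differences of the size that the rule asks for. Changes of 4-fold and 16-fold were put in as well, which eases the adjusted cut for the 2-fold ones. The shares called may thus be too high for the data. A gene counts as nearer to PC3-Epi where its distance was under that of both other lines.

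The text names genes apart by the size of the gap, the 3 members of a list with the largest difference, and transition markers. ZNF514, DPP4, SBSN and ACTG2 and the chromosome 2 comparison were chosen after the values were seen. The members and lists were chosen with earlier results of these data known. Alternatives covered filters, probe set means, cyclic loess, an added offset, a floor, other limits, other eBayes settings and other sets of arrays.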

Additional observations from a re-analysis of the deposited data

How the results depend on the processing

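With the mean of all probe sets, 7 genes were apart and higher, 11 lower and 10 further from PC3-Epi, and 18 of the 30 genes remained. With 32 added on the linear scale the counts were 5 higher, 9 lower, 5 nearer and 9 further, 14 of the 30 remained, and 41.6% of the shared genes were nearest in PC3-EMT12. At 1.5-fold they were 144 higher, 64 lower, 117 nearer and 82 further, and at 3-fold 2, 1, 2 and 1. Leaving out each other EMT line in turn gave 19 to 94 higher, 31 to 52 lower, 22 to 73 nearer and 28 to 73 further. Without chromosome 2, chosen after seeing the data, 8 genes were higher. No filter, a filter at log2 7, cyclic loess and a floor at log2 5 kept every count of genes apart within 1.5 times, with 24 to 30 of the 30 genes. limma called 1 higher and 4 lower genes over all 8 arrays and 0 under the other alternatives, where 1093 to 1499 genes had an unadjusted p under 0.05. It could not be run without 1 of the sister lines, which leaves no residual degrees of freedom. Of the 30 genes, sh4 against Scr called 6 with the line as a block, 1 without the replicate block, 0 in the 4 transduced arrays alone, 2 with probe set means and 2 with the floor. Genes 2-fold in both lines numbered 7, but 4 with probe set means and 3 with 32 added. The chromosome 2 median, an outcome added after seeing the data, was 0.10 with no filter, 0.26 at log2 7, 0.21 with probe set means, 0.19 with 32 added, and 0.22 to 0.24 when a sister line was left out. No single gene's difference from the sister lines reversed. Each line rests on 1 array, and values near log2 5 are close to background.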
